A study of Sus scrofa with 599 samples.

Results

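Mesenteric adipose (MAD), the fat along the vessels and lymph nodes of the gut mesentery, was compared with the upper layer of backfat (ULB), a subcutaneous fat, in female Bama miniature pigs after weight loss. The animals, 2 years old when the study began, ate a high-fat diet for 22 weeks. They were then held to 10% of normal caloric intake for 12 weeks (the WL group). Members were the deposited columns named for WL MAD and WL ULB, which gave 10 and 10 RNA-seq libraries of 236 in the series and 10 and 10 Hi-C samples of 240. Breed, sex and age at the start of the study were shared by all groups, and every WL animal had passed through weight gain before restriction. Pigs kept on a normal diet (NC) and pigs taken at the end of the high-fat diet (WG) served only to ask whether a depot difference was itself different after weight loss. H3K27ac ChIP-seq of 3 MAD and 2 ULB samples was pooled by depot in the authors' enhancer tables. The WL pigs were killed 12 weeks later than the WG pigs, so restriction and time cannot be told apart. Each tissue piece was bulk, so fewer cells of a type and less RNA per cell cannot be told apart either.

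Fat depots arise from different parts of the embryonic mesoderm, and their stromal cells and adipocytes keep transcription factors of that origin in adult life. Visceral fat is covered by mesothelium and lies beside lymphatic vessels and lymph nodes, while backfat is layered under the skin and holds abundant fibrous matrix. In the nucleus, chromatin divides into an A compartment, gene-rich and transcribed, and a B compartment, compact and mostly silent, and H3K27ac marks active enhancers and promoters.

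After weight loss, some lineage transcription factors differed widely between the 2 depots. TCF21, NKX2-3, HAND2 and WT1 had medians of 6.77 to 10.1 TPM in mesenteric fat and at most 0.186 TPM in backfat, while ZIC1, EN1, IRX1 and IRX2 were higher in backfat. Most of these genes were named because their differences were among the largest. Other lineage factors, such as GATA6 and FOXF1, were present in both depots. Backfat had more RNA of fibrillar collagens and periostin and of lipid synthesis enzymes such as SCD. Mesenteric fat had more RNA of retinoic acid synthesis enzymes, of WNT5A and WNT5B, of lymphatic endothelium and of lymphocytes, the last mostly from 3 libraries. Few bins switched compartment, and bins at WT1, TCF21, NKX2-3, MSX2 and EN1 differed in the direction of their RNA.

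Depth was alike in the 2 depots, with 12626380 to 18677197 estimated counts on protein-coding genes (PCGs) per MAD library and 10858441 to 21677739 per ULB library. Adipocyte genes were abundant in every library, with ADIPOQ, which encodes adiponectin, at 478 to 4848 TPM (median 2377) in MAD and 1992 to 6627 TPM (median 4218) in ULB. Some libraries stood apart. MAD replicates 1, 6 and 7, called lymphocyte-rich here, held 61.9 to 236 TPM of MS4A1, the B cell surface protein CD20, against 0.734 to 2.77 TPM in the other 7 MAD libraries and 0.508 to 1.29 TPM in ULB. In 6 MAD and 3 ULB libraries a single lncRNA took over 50000 TPM, and 7 MAD and 3 ULB libraries had under 90% of all TPM on PCGs. RNA results were therefore also computed without the 3 lymphocyte-rich libraries, and with the lncRNA state as a term. All 3 lymphocyte-rich libraries were also among the 6 and among the 7, so these checks act in part on the same libraries. Neither check was made for the Hi-C or ChIP-seq results, in which a share of lymphocytes was not tested.

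Of 14015 PCGs tested, 2022 (14.4%) were differentially expressed genes (DEGs; a fold above 1.5 at an adjusted p under 0.05, edgeR quasi-likelihood test). Of these, 1246 (8.89%) were higher in MAD and 776 (5.54%) were higher in ULB. Without the lymphocyte-rich libraries 1257 DEGs (9.0% of 13969) were called, 761 (5.45%) higher in MAD and 496 (3.55%) higher in ULB, and 1091 of them were among the 2022, all in the same direction. Without the 10 libraries under 90% TPM on PCGs 698 DEGs were called. The TPM ranges of the 2 depots did not overlap for 99 genes higher in MAD (0.706%) and 119 higher in ULB (0.849%). The median log2 fold change (log2FC) over all tested genes was 0.03, and positive values mean higher in MAD throughout. Counts and medians of the gene lists below cover only members that passed the filter on low values. Of the 14015 genes 505 passed it through MAD alone and 297 through ULB alone. The filter itself selects such genes toward a higher level in that depot. Replicates are libraries of separate labels, and p-values measure the spread between these libraries. The methods describe all depots as taken from the same pigs, and the main tests did not use that pairing.

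Of the list of 20 transcription factors of the visceral mesoderm, 11 were too low in both depots to be tested and 9 were tested. Of these 7 were DEGs higher in MAD, with and without the lymphocyte-rich libraries. However, 5 of the 9 passed the filter through MAD alone and were thereby selected toward MAD, so the count is no support for a direction of the list. Of the 4 that passed in both depots 2 were DEGs higher in MAD. No member was called higher in ULB by edgeR's quasi-likelihood test, by DESeq2 or by the exact test, and 0 had an unadjusted p below 0.05 in that direction. TCF21 ranged from 5.22 to 11.96 TPM (median 9.501) in MAD and from 0 to 0.199 TPM (median 0) in ULB. TCF21 is a basic helix-loop-helix factor of visceral mesoderm, and its ranges lay wholly apart (log2FC 7.04, SE 0.45, adjusted p = 6.0e-10). NKX2-3 ranged from 3.54 to 14.2 TPM (median 10.1) in MAD and from 0 to 0.175 TPM (median 0) in ULB. NKX2-3 is a homeobox factor of gut and spleen mesenchyme, and its ranges were separate as well (log2FC 8.01, SE 0.48, adjusted p = 1.9e-10). Both fitted changes rest on counts near 0 in ULB. TCF21 had 9 estimated counts over the 10 ULB libraries, 7 of them at 0, against 1416 over the MAD libraries, and NKX2-3 had 6, again with 7 at 0, against 1996. Among the remaining members, the lowest, median and highest values of HAND2 were 2.01, 8.37 and 13 TPM in MAD and 0, 0.186 and 0.627 TPM in ULB (log2FC 5.26, SE 0.48, adjusted p = 1.1e-07). WT1, the Wilms tumour zinc finger protein of mesothelium and visceral fat progenitors, ranged from 1.997 to 10.4 TPM (median 6.77) in MAD. In ULB WT1 ranged from 0 to 1.71 TPM (median 0.0144), with 1 library well above the others, and the groups still did not overlap (log2FC 4.56, SE 0.68, adjusted p = 7.2e-05). In ULB HAND2 and WT1 had 19 and 65 estimated counts in all, against 794 and 1523 in MAD. GATA6 and FOXF1, which act in the mesoderm around the gut, were present in both depots and did not overlap between them (log2FC 2.003, adjusted p = 7.1e-09, and log2FC 2.34, adjusted p = 5.9e-08).

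Other factors were higher in ULB. Of the list of 26 subcutaneous patterning factors, 4 were not analysed here, 11 were too low in both depots to be tested and 11 were tested. Of these 8 were DEGs higher in ULB. Since 6 of the 11 passed the filter through ULB alone and were thereby selected toward ULB, the count is no support for a direction of the list. Of the 5 that passed in both depots 2 were DEGs higher in ULB. Without the lymphocyte-rich libraries the call of SHOX2 was lost (log2FC -0.40, adjusted p = 0.26). No member was called higher in MAD by any of the 3 count tests, and 1 had an unadjusted p below 0.05 in that direction. EN1, a homeobox factor of the dorsal trunk dermis, ranged from 10.2 to 25.8 TPM (median 16.2) in ULB and 0.0569 to 0.956 TPM (median 0.601) in MAD. It was 29.1-fold higher in ULB (log2FC -4.86, SE 0.29, adjusted p = 1.6e-10). IRX1, IRX2, IRX3 and IRX5, Iroquois homeobox factors of limb and trunk patterning, were all DEGs higher in ULB. IRX2 ranged from 0 to 0.173 TPM (median 0.0216) in MAD and from 3.83 to 12.2 TPM (median 7.06) in ULB. The ranges of IRX1, IRX2 and IRX5 were separate. Those of IRX3 touched, at 2.86 to 11.4 TPM (median 5.73) in MAD against 11.3 to 23.02 TPM (median 15.01) in ULB (log2FC -1.38, SE 0.23, adjusted p = 2.2e-04). EMX2 and TBX5, patterning factors of the urogenital ridge and the forelimb, were 7.25-fold and 7.04-fold higher in ULB.

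Outside that list, ZIC1 and KRT222 stood among the 12 largest differences toward ULB. ZIC1, a zinc finger factor of dorsal neural and mesodermal tissue that is also known from brown fat, had 0 counts in all 10 MAD libraries and 5.75 to 37.5 TPM (median 13.9) in ULB. Set against a floor of 3 counts per library, it was at least 69.2-fold higher in ULB. KRT222, a keratin-like protein, was 19.9-fold higher in ULB without overlap (log2FC -4.32, SE 0.41, adjusted p = 1.9e-07).

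**Figure D1:**
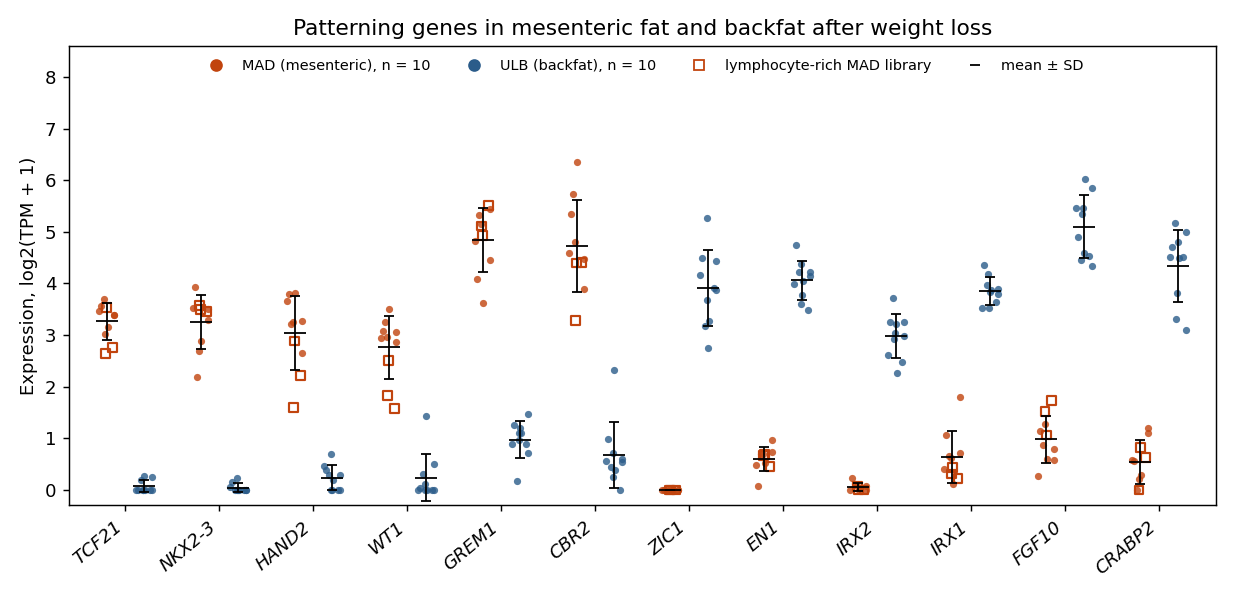
Expression of 12 patterning and signalling genes as log2(TPM + 1) in each MAD and ULB library after weight loss (points), with mean and SD (bars); open squares are the 3 lymphocyte-rich MAD libraries. TCF21, NKX2-3, HAND2, WT1, GREM1 and CBR2 lie higher in every MAD library than in any ULB library, and ZIC1, EN1, IRX2, IRX1, FGF10 and CRABP2 lie lower, with ZIC1 at 0 in all 10 MAD libraries.

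The promoters of TCF21, NKX2-3, EN1 and ZIC1 are shown because both their RNA and their compartment index differed between the depots. Each line is the 250 bases before the RefSeq gene start in Sscrofa11.1, read on the gene's strand, with the GC box (GGGCGG) and the CCAAT box (CCAAT) on either strand in capitals, so that CCGCCC and ATTGG mark the opposite strand. TATAAA was searched on both strands as well and is in none of these windows.
TCF21: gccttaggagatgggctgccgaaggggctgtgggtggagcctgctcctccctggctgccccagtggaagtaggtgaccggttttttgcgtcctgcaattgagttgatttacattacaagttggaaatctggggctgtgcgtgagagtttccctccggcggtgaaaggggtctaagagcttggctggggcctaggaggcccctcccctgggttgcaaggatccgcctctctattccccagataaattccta
NKX2-3: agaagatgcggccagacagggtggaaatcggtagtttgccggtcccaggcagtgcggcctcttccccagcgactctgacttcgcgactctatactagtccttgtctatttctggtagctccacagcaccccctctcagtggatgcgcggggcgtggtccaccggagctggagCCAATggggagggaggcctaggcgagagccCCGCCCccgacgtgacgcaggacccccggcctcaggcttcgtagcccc
EN1: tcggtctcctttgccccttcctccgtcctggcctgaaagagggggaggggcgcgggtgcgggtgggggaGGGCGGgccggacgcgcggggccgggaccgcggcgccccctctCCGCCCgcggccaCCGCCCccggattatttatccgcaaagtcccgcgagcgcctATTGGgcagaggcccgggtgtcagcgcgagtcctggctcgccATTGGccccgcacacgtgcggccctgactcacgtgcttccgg
ZIC1: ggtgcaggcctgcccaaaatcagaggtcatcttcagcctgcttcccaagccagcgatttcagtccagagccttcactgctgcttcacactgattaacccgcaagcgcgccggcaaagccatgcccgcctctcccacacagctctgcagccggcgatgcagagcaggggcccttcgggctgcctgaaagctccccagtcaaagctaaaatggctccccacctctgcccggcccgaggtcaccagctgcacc
They lie at chr1:29978274-29978523 (minus strand), chr14:110720134-110720383 (plus), chr15:24408378-24408627 (minus) and chr13:87740519-87740768 (plus). EN1 held 3 GC boxes and 2 CCAAT boxes, NKX2-3 held 1 of each, and TCF21 and ZIC1 held neither. Of 13534 promoters of this length, 53.0% held a GC box, 31.8% a CCAAT box and 7.99% the TATAAA letters. Base composition of the EN1 promoter was 74.0% G and C, above 85.0% of promoters, while TCF21 had 57.2%.

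The HOX clusters, whose genes encode position along the body axis, split by cluster. All 7 tested HOXB genes were DEGs higher in MAD, with a median log2FC of 0.99 (1.04 and again 7 of 7 without the lymphocyte-rich libraries). Of the 7, 2 passed the filter on low values through MAD alone, which selects toward MAD, and 5 passed in both depots. HOXB6 ranged from 7.6 to 26.8 TPM (median 16.3) in MAD and from 3.64 to 12.2 TPM (median 6.05) in ULB, overlapping at the edges (log2FC 1.36, SE 0.19, adjusted p = 2.8e-05). HOXB8 was low in both depots but did not overlap, at 1.25 to 3.83 TPM (median 2.08) and 0.0486 to 0.999 TPM (median 0.399) (log2FC 2.39, SE 0.37, adjusted p = 1.1e-04). Of 6 tested HOXA genes 2 were higher in MAD (median 0.25), HOXA2 among them (log2FC 1.87, adjusted p = 0.0019). Of the 5 HOXA genes that passed the filter in both depots 1 was higher in MAD (median 0.15). HOXA5 was at 15.5 against 11.3 TPM at the median and did not pass (log2FC 0.34, adjusted p = 0.095). HOXC and HOXD were higher in ULB, with 3 of 5 DEGs in each and medians of -0.65 and -0.69. HOXD8 ranged from 12.1 to 45.7 TPM (median 23.9) in MAD and from 55.2 to 98.8 TPM (median 81.1) in ULB, without overlap (log2FC -1.54, SE 0.22, adjusted p = 3.3e-05). HOXC9 was the lead member of its cluster (log2FC -1.33, adjusted p = 0.0048), while HOXC8, HOXC4 and HOXD9 were among the calls. These 3 were lost without the lymphocyte-rich libraries (log2FC -0.79, adjusted p = 0.13, log2FC -0.57, adjusted p = 0.11, and log2FC -0.60, adjusted p = 0.14), which left 1 HOXC and 2 HOXD genes called.

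Secreted signals differed in both directions. In the BMP and TGF-beta list 5 of 22 tested genes were higher in MAD and 3 higher in ULB (median 0.34). However, 5 of the 22 passed the filter on low values through MAD alone and 2 through ULB alone, and these were thereby selected toward that depot. Of the 15 that passed in both depots 2 were higher in MAD and 2 in ULB (median 0.22). GREM1, a secreted antagonist of BMP ligands, ranged from 11.2 to 44.5 TPM (median 31.5) in MAD and from 0.135 to 1.77 TPM (median 1.05) in ULB, a 30.7-fold difference (log2FC 4.94, SE 0.33, adjusted p = 1.4e-09). GDF6, itself a BMP-family ligand, was low but separate, with medians of 1.903 and 0.0315 TPM (log2FC 4.81, SE 0.46, adjusted p = 1.8e-07). TGFB2 was higher in ULB (log2FC -0.90, adjusted p = 5.7e-04). FGF10, a growth factor that acts on preadipocytes and on epithelia, was higher in ULB and ranged from 0.199 to 2.32 TPM (median 0.954) in MAD and from 19.3 to 64.2 TPM (median 34.3) in ULB (log2FC -4.93, SE 0.37, adjusted p = 6.7e-09).

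Of 18 tested WNT ligands and inhibitors, 8 were higher in MAD and 3 in ULB (median 0.52), and 8 and 2 were so without the lymphocyte-rich libraries. With all libraries, of the 17 that passed the filter in both depots 7 were higher in MAD and 3 in ULB (median 0.33). Among ligands, the lowest, median and highest values of WNT5B were 2.45, 8.795 and 29.2 TPM in MAD and 0.764, 1.196 and 1.51 TPM in ULB (log2FC 3.18, SE 0.33, adjusted p = 7.2e-07). WNT5A (log2FC 1.48, adjusted p = 3.5e-05) and WNT16 (log2FC 2.43, adjusted p = 7.5e-06) were also higher in MAD, the first without overlap. Among inhibitors, which bind WNT ligands or their receptors, SFRP4 was higher in every ULB library, at 81.7 to 196 TPM (median 109.9) against 7.67 to 26.6 TPM (median 10.2) (log2FC -3.37, SE 0.24, adjusted p = 2.7e-09), whereas DKK3 was higher in MAD (log2FC 1.38, adjusted p = 3.7e-04).

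In the retinoid pathway 4 of 16 tested genes were higher in MAD and 2 in ULB (median 0.16). Of the 16, 2 passed the filter on low values through ULB alone, which selects toward ULB. Among the 14 that passed in both depots 4 were higher in MAD and 0 in ULB (median 0.29). ALDH1A3 and ALDH1A2 make retinoic acid from retinal. ALDH1A3 ranged from 73.5 to 172 TPM (median 91.6) in MAD and from 31.5 to 50.2 TPM (median 35.98) in ULB, without overlap (log2FC 1.45, SE 0.13, adjusted p = 8.9e-08), and ALDH1A2 was 2.94-fold higher (log2FC 1.56, SE 0.23, adjusted p = 7.2e-05). CRABP2, which carries retinoic acid to its nuclear receptor, and CYP26B1, which degrades it, were on the ULB side. CRABP2 ranged from 0 to 1.29 TPM (median 0.4898) in MAD and from 7.53 to 35 TPM (median 21.7) in ULB. CYP26B1 had medians of 0.522 and 4.53 TPM, and neither gene overlapped (log2FC -5.43, adjusted p = 8.5e-08, and log2FC -3.35, adjusted p = 1.9e-06). In the IGF axis, 2 of 14 tested genes were higher in MAD and 2 in ULB (median -0.13). Of the 13 that passed the filter in both depots 2 were higher in MAD and 1 in ULB (median -0.10). PAPPA, a protease that frees IGF from its binding proteins, was higher in MAD (log2FC 1.02, adjusted p = 9.8e-04), while its relative PAPPA2 (log2FC -2.28, adjusted p = 1.1e-04) and the binding protein IGFBP5 (log2FC -1.69, adjusted p = 4.6e-04) were higher in ULB.

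Matrix genes were higher in ULB in 15 of 30 tested members (median log2FC -0.70), and in 13 of 30 without the lymphocyte-rich libraries (median -0.47). Neither edgeR test nor DESeq2 called a member higher in MAD, and 1 had an unadjusted p below 0.05 in that direction. POSTN, which encodes the matricellular protein periostin, gave the widest gap: it ranged from 9.43 to 51.3 TPM (median 22.3) in MAD and from 401 to 968 TPM (median 539) in ULB (21.96-fold, log2FC -4.46, SE 0.33, adjusted p = 5.7e-09). Every ULB library lay above every MAD library. Type I collagen is the main fibrillar collagen of connective tissue, and the lowest, median and highest values of COL1A1 were 10.96, 29.99 and 66.3 TPM in MAD and 96.6, 188 and 395 TPM in ULB (log2FC -2.57, SE 0.27, adjusted p = 7.1e-07). COL1A2 (log2FC -2.44, adjusted p = 3.2e-07), COL6A3 (log2FC -1.81, adjusted p = 5.1e-06), the gelatinase MMP2 (log2FC -1.80, adjusted p = 1.1e-06) and the collagen cross-linking enzyme LOX (log2FC -1.27, adjusted p = 7.3e-05) were likewise separate between the depots. COL3A1 and SPARC were higher in ULB with overlapping ranges (log2FC -1.53, adjusted p = 0.0036, and log2FC -1.21, adjusted p = 0.002). Beyond the list, THBS4, KERA and MMP27, a thrombospondin, a small proteoglycan and a metalloproteinase, were 14.3-fold, 21.5-fold and 17.01-fold higher in ULB, each without overlap. THBS2 was also higher in ULB (log2FC -1.69, adjusted p = 8.6e-05).

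Fat progenitor genes were split, in that 4 of 15 tested members were higher in MAD and 3 in ULB (median -0.07). PI16, a marker of progenitors in the connective tissue around vessels and lobules, ranged from 88.3 to 356 TPM (median 205) in MAD and from 7.45 to 37.9 TPM (median 13.6) in ULB (log2FC 3.59, SE 0.31, adjusted p = 4.2e-08). MFAP5, a microfibril protein of the same cells, overlapped between depots and was higher in MAD (log2FC 1.62, adjusted p = 1.6e-04), as was PDGFRA, a general receptor of fat progenitors (log2FC 0.68, adjusted p = 0.0021). SEMA3C, a secreted semaphorin, was higher in every ULB library (log2FC -1.21, adjusted p = 9.0e-04).

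Enzymes that build fatty acids and triglycerides were higher in ULB in 8 of 23 tested members and higher in MAD in 1 (median -0.47), and 5 and 0 were so without the lymphocyte-rich libraries (median -0.29). SCD, the desaturase that makes oleate, ranged from 12.5 to 772 TPM (median 121) in MAD and from 531 to 5188 TPM (median 2727) in ULB. The 2 ranges overlapped and the spread within MAD was wide (13.6-fold, log2FC -3.76, SE 0.66, adjusted p = 4.2e-04). ACLY, which supplies cytosolic acetyl-CoA, had medians of 53.9 and 85.3 TPM (log2FC -0.75, SE 0.12, adjusted p = 1.3e-04). Enzymes that supply NADPH or sugar phosphates were in the same direction, with log2 fold changes of -0.80 for PGD (adjusted p = 0.0014), -0.76 for TALDO1 (adjusted p = 0.0016) and -1.08 for ME1 (adjusted p = 0.0063). GPAM, the first step of triglyceride assembly, was below the fold threshold (log2FC -0.47, adjusted p = 0.011).

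Of 13 tested adipocyte markers 3 were DEGs, all higher in ULB (median -0.55), and 2 without the lymphocyte-rich libraries (median -0.30). An unadjusted p below 0.05 toward ULB was reached by 8, and 7 were called in that direction with the replicate number as a block. LEP ranged from 89.97 to 564 TPM (median 316) in MAD and from 509 to 838 TPM (median 727) in ULB, where LEP encodes the satiety hormone leptin (log2FC -1.14, SE 0.25, adjusted p = 0.0026). PLIN1, the coat protein of lipid droplets, was higher in ULB (log2FC -0.97, adjusted p = 0.016) and stayed just past the threshold without those libraries (log2FC -0.66, adjusted p = 0.049). FABP4, the fatty acid carrier of adipocytes, was called with all libraries (log2FC -0.76, adjusted p = 0.03) but not without the 3 (log2FC -0.51, adjusted p = 0.091). ADIPOQ (log2FC -0.71, adjusted p = 0.13) and PPARG, the master regulator of adipocytes (log2FC -0.50, adjusted p = 0.1), did not pass. The list of lipolysis and fasting response (18 tested) had 1 gene higher in MAD and 1 in ULB (median 0.01), and that of receptors for catecholamines, insulin and natriuretic peptides (14 tested) had 2 and 1 (median -0.17). Of 21 fatty acid oxidation genes 2 were higher in ULB (median -0.29), and 0 of 21 were so without the lymphocyte-rich libraries by edgeR's quasi-likelihood test. ADRA2A, the alpha-2A adrenergic receptor that inhibits lipolysis, was the one of the lipolysis list higher in MAD, at 6.72 against 1.57 TPM at the median (log2FC 1.77, SE 0.40, adjusted p = 0.0032). PCK1, the rate-limiting enzyme of glyceroneogenesis, had medians of 43.3 TPM in MAD and 120.5 TPM in ULB and did not pass (log2FC -1.11, adjusted p = 0.072).

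**Figure D2:**
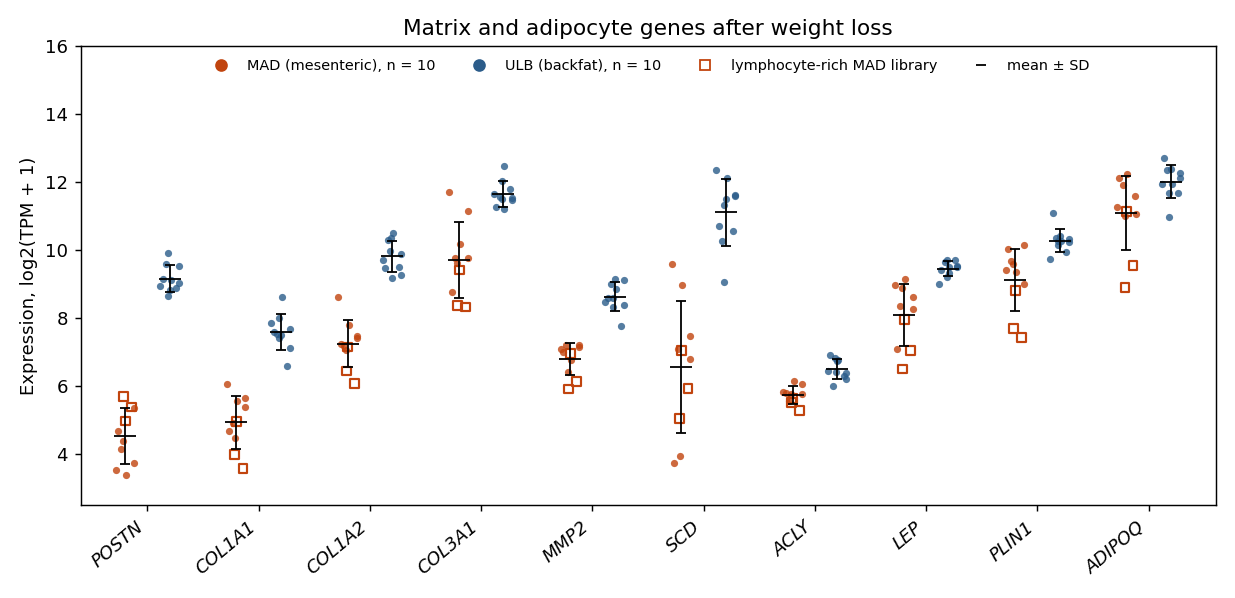
Expression of 10 matrix and adipocyte genes as log2(TPM + 1) in each MAD and ULB library after weight loss (points), with mean and SD; open squares are the 3 lymphocyte-rich MAD libraries. POSTN, COL1A1, COL1A2 and MMP2 are separate between the depots, COL3A1, SCD, ACLY, LEP and PLIN1 are higher in ULB with overlap, and ADIPOQ, at 478 to 4848 TPM in MAD and 1992 to 6627 TPM in ULB, did not pass the test.

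Lymphocyte genes were higher in MAD, but by very different amounts in its libraries. Of 15 tested B cell and plasma cell markers 14 were DEGs (median log2FC 3.29), of 15 T and NK cell markers 14 (median 3.10), and of 5 lymph node stroma and homing genes 5 (median 2.92). Without the 3 lymphocyte-rich libraries these counts were 6 of 14, 9 of 15 and 4 of 5, with medians of 0.67, 0.92 and 0.83. With the lncRNA state as a term they were 4 of 15, 8 of 15 and 3 of 5. None of these markers was called higher in ULB by edgeR or DESeq2, and 0 had an unadjusted p below 0.05 in that direction. Of the 15 B cell and plasma cell markers 5 passed the filter on low values through MAD alone, which selects toward MAD. Of the 10 that passed in both depots 9 were DEGs higher in MAD (median 2.04). The summed TPM of the B cell list ran from 99.8 to 7920 in MAD and from 71.97 to 131 in ULB, and from 99.8 to 372 in the other 7 MAD libraries. For JCHAIN, the joining chain of secreted antibodies, the lowest, median and highest values were 36.4, 175 and 7366 TPM in MAD and 14.8, 26.2 and 83.9 TPM in ULB (log2FC 5.50, SE 1.01, adjusted p = 5.8e-04). Without the 3 libraries it had log2FC 1.94, adjusted p = 0.0043. CD79B, part of the B cell receptor, had log2FC 5.98, adjusted p = 8.3e-04 with all libraries and log2FC 1.61, adjusted p = 0.018 without the 3. SPIB, a B cell and plasmacytoid factor, had log2FC 4.85, adjusted p = 0.0011 and log2FC 1.08, adjusted p = 0.046, and MS4A1 had log2FC 5.94, adjusted p = 9.0e-04 and log2FC 1.197, adjusted p = 0.011. CCR9, a receptor that homes lymphocytes to the gut, was separate between depots with all libraries (log2FC 6.68, adjusted p = 2.2e-04) and was not tested without the 3.

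T cell genes showed the same pattern. CD3E, a subunit of the T cell receptor complex, had log2FC 3.20, adjusted p = 9.9e-04 with all libraries and log2FC 0.98, adjusted p = 0.0018 without the 3. Without them the costimulator ICOS had log2FC 1.64, adjusted p = 0.0013, and the transcription factor TCF7 had log2FC 1.41, adjusted p = 2.9e-04. CCL21, a chemokine of lymphatic vessels and lymph nodes, ranged from 24.8 to 818 TPM (median 109.7) in MAD and from 3.76 to 19.01 TPM (median 8.31) in ULB, and its difference was large with and without those libraries (log2FC 4.74, adjusted p = 2.3e-05, and log2FC 3.13, adjusted p = 9.7e-06). Without them CCR7, a homing receptor of lymphocytes, had log2FC 0.83, adjusted p = 0.041. CLEC4G, a lectin of sinusoidal endothelium, had log2FC 6.08, adjusted p = 5.6e-04 with all libraries and log2FC 2.70, adjusted p = 0.0055 without the 3. Of 6 MHC class II genes, whose related sequences estimated counts may divide, 3 were higher in MAD. Of 14 proliferation genes 3 were higher in MAD, and neither list had a call by edgeR's quasi-likelihood test without the 3 libraries. Of 19 cytokines and chemokines 4 were higher in MAD and 1 in ULB, and 0 and 1 were so without the 3. With all libraries, of the 18 that passed the filter in both depots 3 were higher in MAD and 1 in ULB. Of 20 macrophage markers 1 was higher in MAD and 3 in ULB, against 0 and 1 without the 3. CD9, a tetraspanin of that list, was higher in ULB (log2FC -0.78, adjusted p = 0.0021), and the colony-stimulating factor CSF1 was higher in ULB (log2FC -0.89, adjusted p = 0.0045).

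Of 19 tested endothelial and lymphatic markers 5 were higher in MAD (median 0.23), and 5 were without the lymphocyte-rich libraries. FLT4, CCL21, RELN and PROX1 were called both ways. FLT4 ranged from 12.4 to 51.3 TPM (median 20.2) in MAD and from 2.17 to 8.03 TPM (median 4.42) in ULB, where FLT4 is the receptor for the lymphatic growth factor VEGFC (log2FC 2.31, SE 0.22, adjusted p = 2.1e-07; log2FC 2.26, adjusted p = 3.0e-06 without the 3). RELN (log2FC 2.11, adjusted p = 3.8e-05; log2FC 2.25, adjusted p = 8.3e-05 without) and PROX1, the master factor of lymphatic endothelium (log2FC 2.11, adjusted p = 3.2e-04; log2FC 2.03, adjusted p = 0.0019 without), were in the same direction. Smooth muscle and pericyte markers were higher in MAD in 6 of 17 tested members and higher in ULB in 1 (median 0.71), and 7 and 0 were so without the 3 libraries. TAGLN (log2FC 1.13, adjusted p = 6.5e-04), SYNPO2 (log2FC 1.11, adjusted p = 0.0015) and LMOD1 (log2FC 1.13, adjusted p = 0.0076) are contractile smooth muscle genes. Complement genes were higher in MAD in 4 of 15 and in ULB in 1 (median 0.48). C3, the central component (log2FC 2.03, adjusted p = 0.0026), and its regulator CFI (log2FC 1.07, adjusted p = 0.0013) were higher in MAD, and the lectin-pathway protease MASP1 was higher in ULB (log2FC -1.96, adjusted p = 3.5e-04). CBR2, a carbonyl reductase, and PCP4, a calmodulin regulator, were among the 12 largest differences toward MAD, at 38.1-fold and 32.7-fold, the latter against 15 estimated counts over all ULB libraries. The ranges of CBR2 did not overlap, and PCP4 had log2FC 3.07, adjusted p = 0.0056 without the 3 libraries.

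Mesothelial markers could be checked only in part, since MSLN and UPK3B were not analysed here. Of 7 tested members 2 were higher in MAD (median 0.88), RSPO1, a WNT agonist (log2FC 1.71, adjusted p = 0.0013), and UPK1B, a uroplakin at low level (log2FC 2.60, adjusted p = 2.2e-04). PKHD1L1, a large membrane protein, had log2FC 1.23, adjusted p = 0.069. Of the 7, 3 passed the filter on low values through MAD alone. The summed TPM of the list ran from 13.8 to 92.02 in MAD (median 25.01) and from 7.904 to 159 in ULB (median 15.7), and ULB replicates 1, 9 and 10 lay above every MAD library. Of 8 tested nerve and glia markers 2 were higher in MAD and 1 in ULB (median 0.30). Among the 5 that passed the filter in both depots 2 were higher in MAD and 0 in ULB (median -0.26). SCN7A and CDH19, both of non-myelinating glia, were the pair higher in MAD (log2FC 1.39, adjusted p = 0.0013, and log2FC 1.31, adjusted p = 0.0021). In the steroid receptor list (11 tested, 1 and 1, median -0.11) the progesterone receptor PGR was higher in MAD (log2FC 1.52, adjusted p = 6.5e-04). Markers of skeletal muscle (4 tested, 1 higher in MAD, median 0.56) and of skin (3 tested, 1 higher in MAD, median 0.87) had overlapping summed levels in the depots, and the skin call was lost without the 3 libraries. At their highest, the summed skin markers were at 15.9 TPM in MAD and 6.51 TPM in ULB, with KRT5 and KRT14 not analysed here. In 6 lists with 55 tested genes in all (mitochondria-encoded, circadian clock, immediate early, blood, intestinal epithelium and pancreas) edgeR's quasi-likelihood test called 0, 3 had an unadjusted p below 0.05 toward MAD and 5 toward ULB, DESeq2 called 1 and edgeR's exact test 1 in each direction. The part of any admixed cell type in the differences above was not tested.

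**Figure D3:**
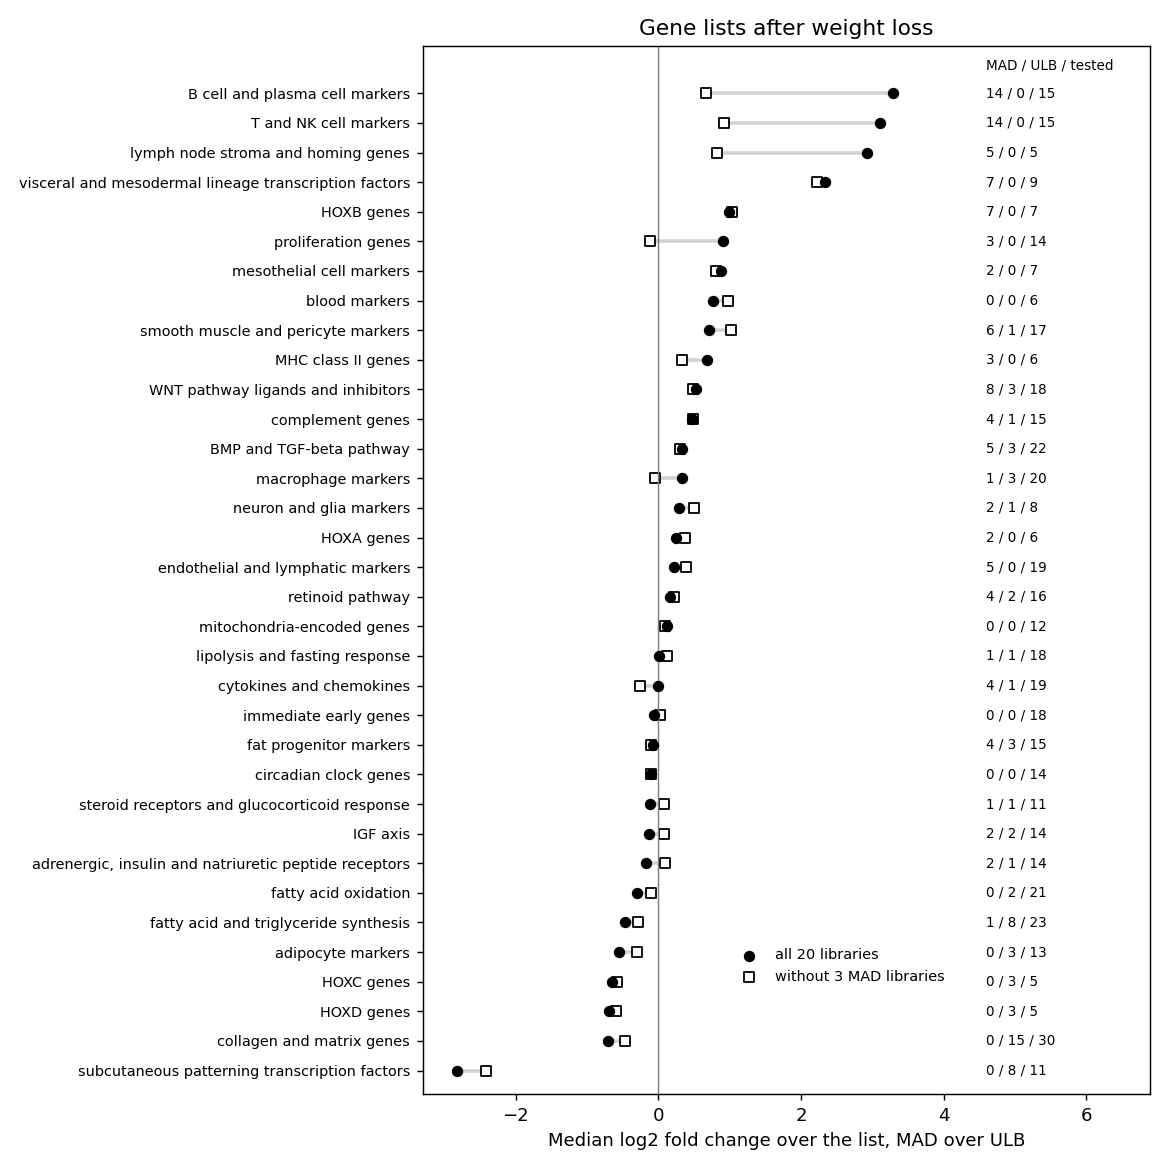
Median log2 fold change, MAD over ULB, of each gene list with at least 5 tested members, with all 20 libraries (filled) and without the 3 lymphocyte-rich MAD libraries (open); numbers at the right give tested members higher in MAD, tested members higher in ULB and all tested members. The B cell, T cell and lymph node lists have medians of 3.29, 3.10 and 2.92 with all libraries and 0.67, 0.92 and 0.83 without the 3. Medians of the visceral and subcutaneous transcription factor lists (2.34 and -2.81 with all libraries, 2.22 and -2.41 without the 3) include 5 of 9 and 6 of 11 genes that passed the filter on low values through 1 depot alone. With all libraries the B cell list includes 5 of 15 genes that passed through MAD alone. The BMP and TGF-beta list includes 5 of 22 that passed through MAD alone and 2 through ULB alone.

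In the A-B index, a score that is positive where a 20-kb bin contacts the A compartment more and negative where it contacts B more, 113298 bins of 18 autosomes were compared. Of these, 56 (0.0494%) were A in more than 80% of MAD samples and B in more than 80% of ULB samples, and 75 (0.0662%) were the reverse. These switches formed 51 and 64 runs of adjoining bins, the longest of 60 kb. A further 3186 bins (2.81%) had a higher index in MAD and 3368 (2.97%) in ULB without a switch (difference above 0.75, limma adjusted p below 0.05). The stable classes were far larger, with 40.6% of bins A in both depots and 40.6% B in both, and 12.9% were in no class. An adjusted p below 0.05 alone was reached by 7.26% of bins toward MAD and 7.41% toward ULB. The share of bins in A ran from 46.9% to 50.4% in MAD and from 47.8% to 50.8% in ULB, and MAD replicate 10 was the lowest.

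Among 10570 bins with the start of a tested gene, 7.99% had a higher index in MAD and 3.98% a higher index in ULB (adjusted p below 0.05). For starts of DEGs higher in MAD (n = 948) these shares were 13.8% and 4.54%, and for starts of DEGs higher in ULB (n = 609) they were 3.12% and 12.3%. For genes that were not DEGs they were 7.71% and 3.36%. Seen from the bins, 59 of 342 genes (17.3%) in bins variable toward MAD were DEGs higher in MAD and 10 (2.92%) higher in ULB, against 8.97% and 5.76% over all these genes. In bins variable toward ULB 17 of 141 (12.1%) were higher in MAD and 20 (14.2%) higher in ULB. Of the 8 tested genes that start in a bin A in MAD and B in ULB 4 were DEGs higher in MAD. Of the 5 in the reverse class 2 were DEGs higher in ULB. Of these genes WT1 was named in advance, and PAPPA and MSX2 were named by rules that use these same data. The others were chosen for naming after their values were seen.

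WT1 (chr2:28411467-28456007, Sscrofa11.1) was one of the first 4. The index of its start bin was 0.59 ± 0.32 in MAD and -1.11 ± 0.58 in ULB (mean ± SD, n = 10), A in 10 of 10 MAD samples and in 0 of 10 ULB samples (difference 1.70, SE 0.21, adjusted p = 2.3e-05). ENPEP, an aminopeptidase that cleaves angiotensin, was A in 10 MAD samples and in 1 ULB sample (difference 1.19, SE 0.16, adjusted p = 6.9e-05), and its RNA was higher in MAD (log2FC 1.03, adjusted p = 0.0026). PAPPA was A in 9 and 1 (difference 0.98, adjusted p = 0.014). FAM171B was also A in 9 and 1 (difference 0.51, adjusted p = 0.034), but the call of its RNA rested on the lymphocyte-rich libraries (log2FC 1.09, adjusted p = 0.0079, and log2FC 0.43, adjusted p = 0.088 without them). In the reverse class, MSX2, a homeobox factor of skin and bone, was A in 1 MAD sample and 10 ULB samples (difference -1.10, SE 0.18, adjusted p = 3.3e-04). Its RNA ranged from 0.119 to 1.77 TPM (median 0.315) in MAD and from 1.34 to 8.06 TPM (median 4.05) in ULB (log2FC -2.96, SE 0.42, adjusted p = 4.6e-05). PHGDH, the first enzyme of serine synthesis, was A in 1 and 9 samples (difference -1.10, adjusted p = 5.6e-04) and its RNA did not overlap between the depots. It ranged from 2.53 to 15.2 TPM (median 5.19) in MAD and from 17.6 to 35.5 TPM (median 26.9) in ULB (log2FC -2.03, SE 0.26, adjusted p = 1.5e-05). A run of 60 kb at chr15:24300001-24360000 was B in MAD and A in ULB and held the start of no named gene. It lies near EN1, whose promoter window shown above is at chr15:24408378-24408627.

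Other lineage factors differed without a switch. TCF21 had an index of 1.48 ± 0.37 in MAD and 0.56 ± 0.43 in ULB (difference 0.91, SE 0.18, adjusted p = 0.0019). NKX2-3 had 1.73 ± 0.58 in MAD and 0.23 ± 0.46 in ULB (difference 1.496, SE 0.22, adjusted p = 1.7e-04), and GATA6 was higher in MAD as well (difference 0.97, adjusted p = 0.0016). HAND2 was in B in every sample of both depots and still had a higher index in MAD (difference 1.202, adjusted p = 1.9e-04). On the backfat side the index of EN1 was 0.61 ± 0.26 in MAD and 1.94 ± 0.76 in ULB (difference -1.33, SE 0.24, adjusted p = 8.2e-04). The index of FGF10 was -2.64 ± 0.54 in MAD and -0.97 ± 0.54 in ULB (difference -1.67, adjusted p = 6.8e-05). That of ZIC1 was -2.33 ± 0.29 in MAD and -0.94 ± 0.86 in ULB (difference -1.39, adjusted p = 0.0014). ZIC1 and FGF10 were positive in 1 and 0 of 10 ULB samples, although ULB was the depot that expressed them. IRX1 (difference -0.79, adjusted p = 0.014) and IRX2 (difference -0.51, adjusted p = 0.046) were higher in ULB too, the latter not past the threshold without MAD replicate 10 (adjusted p = 0.075). In the HOX clusters the index differed in the direction of the RNA at HOXA2 (difference 1.05, adjusted p = 0.001), HOXB6 (difference 1.02, adjusted p = 4.1e-04), HOXB7 (difference 0.63, adjusted p = 0.013) and HOXC8 (difference -0.57, adjusted p = 0.013).

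RNA and index did not always go together. FOXF1 (difference 0.17, adjusted p = 0.59), GREM1 (difference 0.18, adjusted p = 0.5), COL1A1 (difference -0.10, adjusted p = 0.76) and POSTN (difference -0.70, adjusted p = 0.096) had no called index difference. Conversely, FABP4 had a wide gap in the index, 1.19 ± 0.74 in MAD and 3.49 ± 0.56 in ULB (difference -2.30, SE 0.27, adjusted p = 1.7e-05), and PPARG a smaller one (difference -0.83, adjusted p = 0.022), although FABP4 RNA was called only with the lymphocyte-rich libraries and PPARG RNA was not called. DKK3 (difference 1.07, adjusted p = 6.6e-04), ALDH1A2 (difference 0.99, adjusted p = 0.0027), MFAP5 (difference 0.75, adjusted p = 0.0033) and RSPO1 (difference 0.74, adjusted p = 0.0045) had index and RNA higher in MAD. The depth behind each index value is unknown, since the table gives scores without contact counts. The index was not tested without the Hi-C samples that share a replicate number with the lymphocyte-rich RNA libraries.

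**Figure D4:**
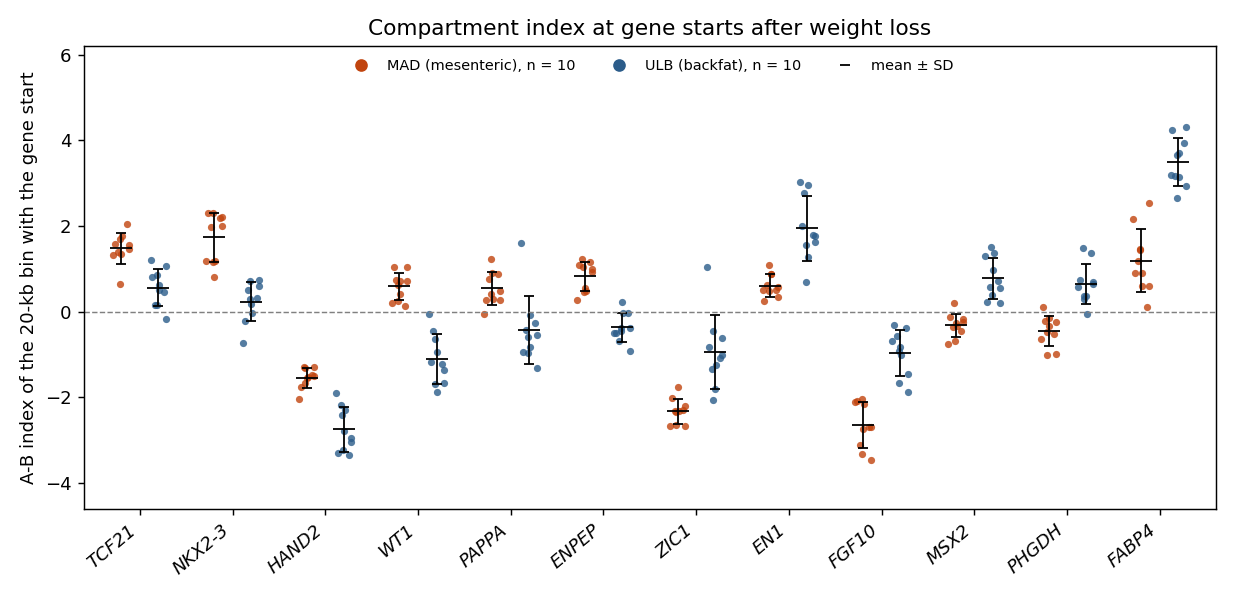
A-B index of the 20-kb bin with the gene start in each of 10 MAD and 10 ULB Hi-C samples (points), with mean and SD; the dashed line at 0 divides A (above) from B (below). WT1, PAPPA and ENPEP lie above 0 in MAD and mostly below 0 in ULB, MSX2 and PHGDH the reverse, and HAND2, ZIC1 and FGF10 lie below 0 in nearly all samples while still differing between the depots.

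H3K27ac regions were listed by the authors for the pooled samples of each depot, 25450 in MAD and 25311 in ULB, of which 82.7% and 86.0% overlapped a region of the other depot. Signal is given as H3K27ac per kb on the scale of the deposited table, where the mean over all regions was 353.8 in MAD and 339.6 in ULB (input 142 and 143). The methods set ROSE to exclude promoter regions, but neighbouring elements were merged, so a merged region can still span a gene start. Pooling leaves no replicates and no test. The MAD pool includes a sample that shares its replicate number with a lymphocyte-rich RNA library, and its regions were not made without that sample. Within 10 kb of TCF21 MAD alone had a region (12.4 kb at 546 per kb). Around WT1 MAD had 78 kb at 388 per kb in 4 regions and ULB 10.4 kb at 206 per kb in 1, and around GATA6 69.8 kb at 356 per kb and 7.6 kb at 301 per kb. Regions near ZIC1, IRX1, IRX2, IRX3, IRX5, MSX2, FGF10 and SFRP4 were listed in ULB alone, for example 8.0 kb at 524 per kb at ZIC1 and 14.4 kb at 732 per kb at IRX5. The ZIC1 region overlapped a MAD region that ended more than 10 kb from the gene. EN1 had a super-enhancer (a region of exceptional H3K27ac load by ROSE) of 35.2 kb at 624 per kb in ULB and a region of 1.6 kb at 583 per kb in MAD.

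Regions within 10 kb of the named genes did not all go with the RNA. Of 57 named DEGs higher in MAD, 42 had more covered length in MAD, 9 had more in ULB and 6 had equal length or none. Of 48 named DEGs higher in ULB, 37 had more in ULB, 10 more in MAD and 1 had equal length or none. Neighbouring genes can share a region, so these counts are not independent. The same counts were not made over all tested genes, so no share stands beside them and nothing is drawn from them. Over all regions the median length was 8.6 kb in MAD and 8.0 kb in ULB. GDF6, a BMP ligand, was called higher in MAD and had a region in ULB alone (1.8 kb at 279 per kb). CD9 and ME1, both higher in ULB by RNA, had regions in MAD alone (97.8 kb at 527 per kb, a super-enhancer, and 6.8 kb at 214 per kb). COL6A3, also higher in ULB, was near super-enhancers in both depots, 339 kb at 422 per kb in MAD and 159 kb at 472 per kb in ULB. At HOXB6, HOXA2, HOXC9 and HOXD8 the depot with the longer region was the depot with more RNA. The region over HOXB6 was a super-enhancer in both depots, 89.8 kb at 938 per kb in MAD and 68.2 kb at 622 per kb in ULB, and that over HOXA2 was one in MAD (67.8 kb at 804 per kb) but not in ULB (10.4 kb at 465 per kb). HOXC9 and HOXD8 were near super-enhancers in ULB (52 kb at 774 per kb and 46.2 kb at 580.1 per kb), with smaller regions in MAD (18.2 kb at 446 per kb and 18.6 kb at 559 per kb). ALDH1A2 had 181 kb at 264 per kb in MAD, a super-enhancer, against 5.0 kb at 199.7 per kb in ULB. COL1A2 had 20.8 kb at 222 per kb against 140.2 kb at 287 per kb, the latter a super-enhancer. Regions near GREM1, ENPEP and TAGLN were listed in MAD alone. SCD, by contrast, had regions of like size (40.4 kb at 405 per kb in MAD, 48.2 kb at 421 per kb in ULB).

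Depot differences were also set against those of the other diet groups, which have 36 MAD and 38 ULB libraries in WG and 12 and 5 in NC. Of the 1246 genes higher in MAD after weight loss, 622 (49.9%) were DEGs in the same direction in WG and 308 (24.7%) in NC. Of the 776 higher in ULB these were 447 (57.6%) and 350 (45.1%). Among DEGs that were also called without the lymphocyte-rich libraries (640 and 451 genes) the shares in WG were 74.4% and 74.3%, and in NC 39.4% and 58.1%. The counts differ with group size, so they give no order of the diets. The lineage factors were of this kind. TCF21 had medians of 7.97 TPM in MAD and 0 TPM in ULB in NC and 8.33 TPM in MAD and 0.0542 TPM in ULB in WG. EN1 had 0.314 TPM in MAD and 12.4 TPM in ULB in NC and 0.316 TPM in MAD and 12.8 TPM in ULB in WG. The depot difference of TCF21, EN1, ZIC1, WT1, POSTN and COL1A1 after weight loss was not called different from that in WG or NC (adjusted p from 0.19 to 0.999).

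The depot difference itself was tested as an interaction, log2(MAD over ULB) in WL minus the same in WG or NC, where both tests share the WL libraries. Of 14560 genes 814 (5.59%) differed from WG, 570 (3.91%) more toward MAD and 244 (1.68%) more toward ULB after weight loss. Against NC 483 (3.32%) differed, 344 (2.36%) and 139 (0.955%) in these directions. Without lymphocyte-rich libraries, of which WG MAD had 1, 54 (0.372%; 0.2% toward MAD, 0.172% toward ULB) differed from WG and 47 (0.323%; 0.241% and 0.0826%) from NC. The high lncRNA state was in 9 of 20 WL libraries against 1 of 74 in WG and 0 of 17 in NC, and with it as a term 269 and 92 genes were called. Without libraries under 90% TPM on PCGs 11 and 27 were called. PCK1 was among the calls against WG with and without the lymphocyte-rich libraries. It had medians of 101 TPM in MAD and 12.2 TPM in ULB in NC, of 68.6 TPM in MAD and 12.9 TPM in ULB in WG and, after weight loss, of 43.3 and 120.5 TPM. Its depot difference after weight loss was not called (log2FC -1.11, adjusted p = 0.072). The order of the medians differed, with an interaction of -3.59, SE 0.59, adjusted p = 3.2e-05 against WG (-3.29, adjusted p = 0.0039 without lymphocyte-rich libraries). Against NC it was -3.54, SE 0.84, adjusted p = 0.0081 (-3.22, adjusted p = 0.068 without). PLIN4, a lipid droplet protein, had medians of 1283 TPM in MAD and 459 TPM in ULB in WG and 491 and 1182 TPM after weight loss (interaction -2.08, SE 0.40, adjusted p = 2.9e-04; -1.70, adjusted p = 0.025 without). Its depot difference after weight loss was itself not called (log2FC -0.68, adjusted p = 0.32), and was 0.11 in libraries of the high lncRNA state alone and -0.32 in the others alone. PLIN1 did not differ by the test between the depots in WG (838 TPM in MAD and 762 TPM in ULB at the median) and was higher in ULB after weight loss (interaction -1.16, SE 0.23, adjusted p = 3.1e-04; -0.87, adjusted p = 0.031 without).

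The 5 genes with the smallest p against WG were HPSE, GGCX, S1PR3, TLN1 and APLP2. GGCX, the vitamin K-dependent carboxylase, had medians of 84.3 TPM in MAD and 44.1 TPM in ULB in WG and of 66.6 and 77.2 TPM after weight loss (interaction -1.19, SE 0.17, adjusted p = 1.0e-06; -1.02, adjusted p = 7.8e-04 without lymphocyte-rich libraries). TLN1, the integrin linker talin (-0.97, SE 0.15, adjusted p = 7.8e-06; -0.85, adjusted p = 0.0023 without), and APLP2, a relative of the amyloid precursor protein (-0.80, SE 0.12, adjusted p = 7.8e-06; -0.58, adjusted p = 0.0023 without), differed in the same direction. HPSE, an enzyme that cleaves heparan sulfate, reached 52.8 TPM in MAD with the lymphocyte-rich libraries and 5.53 TPM without them, and its interaction of 4.09, SE 0.57, adjusted p = 1.0e-06 was 2.23, adjusted p = 0.0023 without them. S1PR3, a sphingosine-1-phosphate receptor, had an interaction of 4.31, SE 0.62, adjusted p = 1.0e-06 (2.13, adjusted p = 0.02 without), and its depot difference after weight loss went from 2.32 to -0.11 without those libraries.

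**Figure D5:**
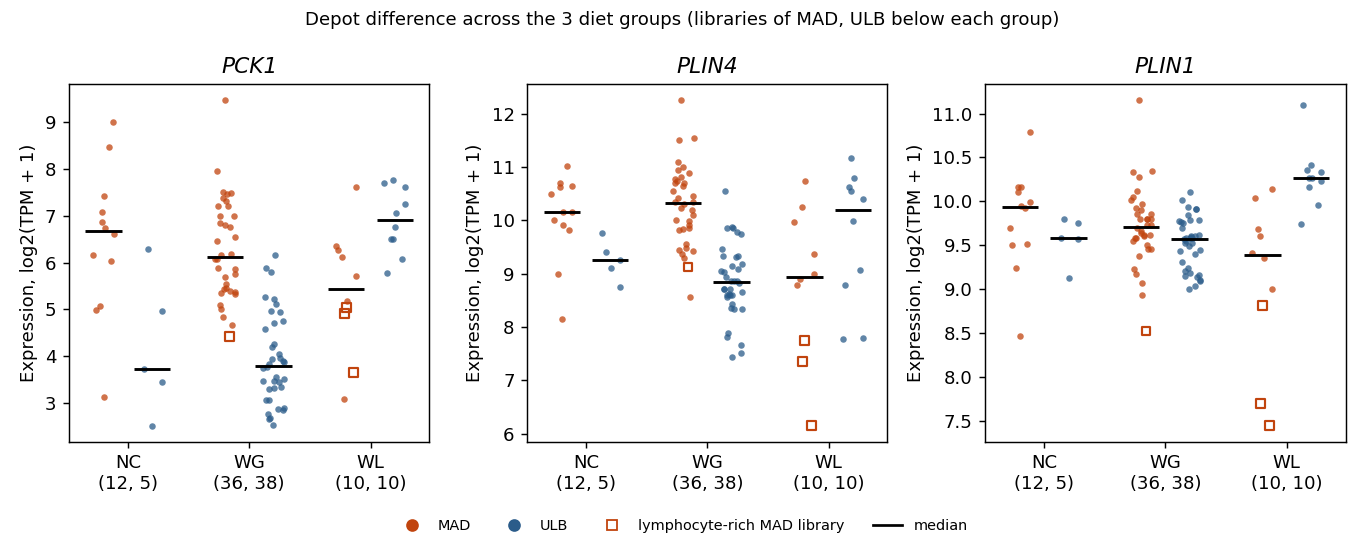
Expression of PCK1, PLIN4 and PLIN1 as log2(TPM + 1) in each MAD and ULB library of the NC, WG and WL groups (points), with medians as bars; numbers under each group are its MAD and ULB libraries, and open squares mark lymphocyte-rich MAD libraries. The PCK1 median is higher in MAD in NC and WG (101 and 68.6 TPM) and higher in ULB after weight loss (120.5 TPM).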

How the data were processed

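Total RNA-seq, in situ Hi-C and H3K27ac ChIP-seq of WL MAD and WL ULB were used, with WG and NC RNA-seq for interactions. The members and gene lists (38 lists, 666 genes) were chosen with earlier results of these data known. The authors deposited estimated counts and TPM of 21280 PCGs, made with kallisto 0.43.0 on Sscrofa11.1; no non-zero count is a whole number, and counts were rounded. The deposited A-B index is a score computed by the authors per 20-kb bin from 100-kb compartment calls, using contacts of mapping quality at least 30. The deposited enhancer tables give H3K27ac and input signal of regions made by ROSE on pooled samples (BWA 0.7.15, SAMtools 1.3.1 and SICER per the submitters' notes). Each of the count and A-B index tables held 9 columns matching no sample, which were not used here. LncRNA and TUCP counts, other groups' enhancer tables and TAD lists were left out of the tests; lncRNA TPM served to describe libraries. Symbols were given for 14821 rows and a RefSeq position on Sscrofa11.1, the same build, for 13534.

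The tested PCGs exceeded 0.5 TPM in 80% or more of 1 group's libraries, and the test was edgeR 4.0.16 (TMM, quasi-likelihood, Benjamini-Hochberg adjustment) in R 4.3.3; a DEG needed a fold above 1.5 at an adjusted p under 0.05. The A-B index was tested with limma 3.58.1. Tests were checked on simulated data. Named genes were the 12 largest DEGs in each direction with at least 5 TPM, the 3 smallest p-values of each list, WT1, TCF21, EN1, IRX3, PPARG, ADIPOQ and LEP, the 5 smallest interaction p-values against WG, and DEGs in the 5 longest switch runs each way; others are said to be chosen later or are list members given with values. Also tried were the exact test of edgeR, DESeq2 1.42.0, other scalings and filters, a replicate block, library covariates and left-out libraries; those on lymphocyte-rich libraries, the lncRNA state and MAD Hi-C replicate 10 were chosen after seeing the data. Summaries used Python 3.11.15, numpy 2.4.6 and pandas 2.3.3. The methods describe all depots as taken from the same pigs, but the labels tie no replicate number to an animal. Some genes that the naming rule chose are not reported here.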

Additional observations from a re-analysis of the deposited data

Results flagged for a closer look

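Of 300 sets of 10 values, 19 had a lowest or highest sample standing apart, its gap to the nearest sample being above Dixon's 95% critical value; chance gives about 1 in 20. For expression these were, in MAD, IRX2 (highest in replicate 3, 0.516, 0.173 TPM), EMX2 (highest in replicate 9, 0.605, 2.46 TPM), ALDH1A3 (highest in replicate 10, 0.485, 172 TPM), FLT4 (highest in replicate 2, 0.469, 51.3 TPM), and in ULB, WT1 (highest in replicate 1, 0.649, 1.71 TPM), MFAP5 (highest in replicate 1, 0.509, 181 TPM), PGD (lowest in replicate 7, 0.561, 97.3 TPM), PLIN1 (highest in replicate 3, 0.506, 2198 TPM), CBR2 (highest in replicate 1, 0.574, 4.01 TPM), PCP4 (highest in replicate 3, 0.473, 2.06 TPM), UPK1B (highest in replicate 9, 0.481, 0.566 TPM), ABCG1 (highest in replicate 10, 0.499, 3.92 TPM), each with its gap as a share of the range. For the A-B index they were, in MAD, TCF21 (lowest in replicate 6, 0.484), COL1A1 (lowest in replicate 3, 0.587), RSPO1 (lowest in replicate 10, 0.498), and in ULB, ZIC1 (highest in replicate 10, 0.485), PAPPA (highest in replicate 10, 0.573), FAM171B (highest in replicate 5, 0.538). MAD Hi-C replicate 10 also had the lowest share of bins in A, with a gap of 0.661 of the range. No cause was tested for any of them.

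The depot difference after weight loss differed by an interaction test for 814 genes against WG and 483 against NC. Among named genes the interactions against WG, on the log2 scale and positive where the difference lay more toward MAD after weight loss, were HOXD9 1.03, FAM171B 1.19, SEMA3C -1.23, PLIN1 -1.16, ADIPOQ -0.95, PCK1 -3.59, PLIN4 -2.08, ADRA2A 2.15, CD79B 3.26, JCHAIN 3.35, MZB1 2.41, CCR9 3.27, CD3E 2.28, ICOS 2.53, TCF7 2.95, CD2 2.25, CCL21 2.98, CCR7 2.82, C3 1.46, SPIB 3.08, CLEC4G 3.95, HPSE 4.09, GGCX -1.19, S1PR3 4.31, TLN1 -0.97, APLP2 -0.80, MYLIP 1.03, ABCA1 0.83, ABCG1 2.18, FBN1 -1.37, THBS2 -1.46, PGR -1.43. Against NC they were HOXB6 -1.47, FAM171B 1.10, PDGFRA 0.95, PLIN1 -1.26, PCK1 -3.54, ADRA2A 2.12, JCHAIN 4.77, CCR9 5.22, CD3E 3.04, TCF7 3.92, CD2 2.37, CCR7 3.87, SPIB 4.48, CLEC4G 5.45, HPSE 2.75, GGCX -0.84, S1PR3 4.94, TLN1 -0.77, MYLIP 1.01, ABCA1 1.27, PGR -1.40. Without lymphocyte-rich libraries the interactions against WG were 1.51, adjusted p = 0.21 for JCHAIN, 0.22, adjusted p = 1 for CD3E, 0.56, adjusted p = 0.97 for TCF7 and 1.38, adjusted p = 0.74 for CCL21, and CCR9 was not tested.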

How the results depend on the processing

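The 2022 DEGs (1246 higher in MAD, 776 in ULB) became 2200 with DESeq2, 2176 with edgeR's exact test, 2017 with RLE factors, 2055 with upper-quartile factors, 2374 with no filter, 1782 above 1 TPM and 1722 with the share of TPM on PCGs as a term. They became 698 (390 and 308) without libraries under 90% TPM on PCGs, 1257 (761 and 496) without the 3 lymphocyte-rich libraries, 328 (150 and 178) in libraries with the high lncRNA state alone and 831 (434 and 397) in the low state alone, where fewer samples entered each test; with that state as a term 799 were higher in MAD. Interactions against WG numbered 814, and 11, 54 and 269 without libraries under 90% TPM on PCGs, without lymphocyte-rich libraries and with the lncRNA term; against NC 483 became 27, 47 and 92. Of A-B index bins, 6554 variable bins became 4257 at an adjusted p below 0.01 and 12637 at a difference above 0.5, and the 131 switches became 1430 at 70% of samples and 10 at all samples; without MAD replicate 10 they were 7344 and 194. Directions turned for 3 named genes. PLIN4 (0.11) and FBN1 (-0.0215) did so in the high lncRNA state. S1PR3 did so without libraries under 90% TPM on PCGs (-1.33), without the lymphocyte-rich libraries (-0.11) and in the low state (-1.06). The cause was not tested for any of these genes.

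Same-numbered MAD and ULB libraries deviated together with correlations of 0.02 to 0.52 (median 0.188), above 0.1 in 8 of 10 pairs. Libraries of different numbers had a median of -0.042. For the A-B index the medians were 0.113 and -0.007, with 6 of 10 pairs above 0.1. In each data type 4 of 10 correlated best with their own number. Same numbers were thus more alike than different ones. Since no label ties a number to an animal, the main tests did not pair them. With a replicate block 2024 DEGs were called (1120 and 904, 1761 shared with the test without it), 6573 variable bins, 1035 interactions against WG and 2184 against NC, and 7 of 13 adipocyte markers (3 without the block) and 8 of 15 B cell markers (14 without it); the cause was not tested.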

Other observations

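ABCA1, ABCG1 and MYLIP, chosen after their values were seen, differed more toward MAD after weight loss than in WG. All 3 are known as targets of the sterol receptor LXR. Its other targets were not examined as a list, and a part of LXR was not tested. ABCA1, a cholesterol exporter, ranged from 50.3 to 205 TPM (median 104) in MAD and from 50.7 to 70.6 TPM (median 61.98) in ULB (log2FC 1.02, SE 0.20, adjusted p = 8.9e-04). In WG its medians were 71.8 TPM in MAD and 56.9 TPM in ULB, and in NC 59.1 TPM in MAD and 74.99 TPM in ULB, with interactions of 0.83, SE 0.21, adjusted p = 0.0051 against WG (1.07, adjusted p = 0.004 without lymphocyte-rich libraries) and 1.27, SE 0.28, adjusted p = 0.0038 against NC (1.49, adjusted p = 0.0024 without). ABCG1, a second exporter, was higher in MAD after weight loss (log2FC 1.49, adjusted p = 3.5e-04; interaction against WG 2.18, SE 0.38, adjusted p = 1.0e-04, and 2.01, adjusted p = 0.0046 without). Against NC its interaction was not called (1.21, SE 0.52, adjusted p = 0.19; 1.03, adjusted p = 0.6 without). MYLIP, which degrades the LDL receptor, had medians of 27.3 TPM in MAD and 71.01 TPM in ULB in WG and of 32.9 and 47.2 TPM after weight loss (interaction 1.03, SE 0.18, adjusted p = 1.0e-04; 1.16, adjusted p = 4.7e-04 without).

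A pair of matrix genes, also chosen after their values were seen, had interactions in the other direction. FBN1, the microfibril protein fibrillin-1, was higher in MAD in WG (507 TPM in MAD and 177 TPM in ULB at the median) and had medians of 273 and 245 TPM after weight loss (interaction -1.37, SE 0.24, adjusted p = 1.0e-04; -1.16, adjusted p = 0.0094 without). THBS2, a thrombospondin, had medians of 176 TPM in MAD and 212 TPM in ULB in WG and of 115 and 393 TPM after weight loss (interaction -1.46, SE 0.27, adjusted p = 2.2e-04; -1.26, adjusted p = 0.012 without).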
